A study of Homo sapiens with 27 samples.

Results

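Gene expression was followed by RNA sequencing in REH cells treated with lnc-RTN4R-1 GapmeR1, an antisense oligonucleotide against the long non-coding RNA (lncRNA) lnc-RTN4R-1. The comparison took all samples labelled with this GapmeR (3 replicates) and all control samples (5 samples, 2 of medium and 3 of a non-targeting GapmeR, NTC), which is 8 of the 27 samples of the series. REH is a long-established cell line from human BCP-ALL, a leukemia of immature B cells, and it has the ETV6/RUNX1 fusion, which treated and control cells share. GapmeRs were present at 10 µM for 72 h, medium samples received no oligonucleotide, and cells took up the GapmeRs without a transfection reagent. Per the methods, replicates were run on separate days, and the replicate number was kept as a block in each test. All 8 samples come from 1 cell line, so the p-values describe the spread between cultures of REH and not between patients. Medium and NTC were pooled as 1 control group, so this spread includes any difference between them. The other 19 samples hold a GapmeR2 against the same lncRNA (3 samples) and GapmeRs against 3 other lncRNAs, lnc-ASTN1-1, lnc-TIMM21-5 and lnc-NKX2-3-1 (16 samples), and were used where the text says so.

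An LNA GapmeR is a short single strand of DNA flanked by locked nucleic acid (LNA) bases, which raise its affinity for RNA. Where it pairs with an RNA, the nuclear and cytoplasmic enzyme RNase H can cut the RNA strand of the hybrid, and the cut RNA is degraded. RNase H acts on unspliced as well as spliced RNA, so introns can be paired too, and lncRNAs kept in the nucleus are common targets of such oligonucleotides.

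The sequences are shown because the most lowered genes differed from other genes in how far their unspliced RNA pairs with the oligonucleotide. The designed GapmeR1 sequence is written 5′ to 3′ with its first 12 bases in capitals, and the GapmeR2 sequence in lower case.
lnc-RTN4R-1 GapmeR1: GCATTCATGGGTtaag
lnc-RTN4R-1 GapmeR2: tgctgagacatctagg
The sense-strand windows below come from GRCh38 with GENCODE v44 gene bodies, and capitals mark the longest run of bases that pairs with GapmeR1. The first is the target, called LINC02891 in GENCODE, and the next 7 are genes that were lower with GapmeR1.
LINC02891, chr22:20200478-20200493, - strand, exon: CTTAACCCATGAATGC
ZEB1, chr10:31343798-31343813, + strand, intron: cagAACCCATGAATGC
SCMH1, chr1:41170492-41170507, - strand, intron: ctccACCCATGAATGC
KIAA1958, chr9:112581979-112581994, + strand, intron: acatACCCATGAATGC
WWOX, chr16:78253575-78253590, + strand, intron: catgACCCATGAATGC
RBM28, chr7:128308660-128308675, - strand, exon: gggAACCCATGAATGC
PTPRK, chr6:128048648-128048663, - strand, intron: cagAACCCATGAATGC
RERE, chr1:8568519-8568534, - strand, intron: gTTAACCCATGAATGC
The last windows belong to CYRIA and PTPRD, which were not called changed although each window had only 1 mismatch to GapmeR1.
CYRIA, chr2:16584352-16584367, - strand, intron: CTTAACCCATGAATGa
PTPRD, chr9:8998788-8998803, - strand, intron: CTTAACCCATGAATcc
Windows are read along the gene, so the 3′ end of a window pairs with the 5′ end of the oligonucleotide. The windows of the target and of the 7 lowered genes pair with the first 12 bases of GapmeR1 without a mismatch, whereas the runs in CYRIA and PTPRD start at base 2 and base 3 of the oligonucleotide. RERE, CYRIA and PTPRD were picked for display after their values were seen.

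The target itself was reported first, as a check of the labels. LINC02891 (ENSG00000249923) is annotated on the minus strand of GRCh38 at chr22:20198729-20204918, in the 22q11 region next to RTN4R. Levels are given as CPM, the counts scaled to library size. The target measured 6.03, 6.43 and 5.08 CPM in the 3 GapmeR1 samples, 19.1 and 24.4 CPM in medium and 18.3, 22.6 and 19.8 CPM with NTC. The 3 GapmeR1 samples were all below the 5 controls, with a mean of 5.85 ± 0.698 CPM with GapmeR1 (SD, n = 3) against 20.9 ± 2.55 CPM in controls (SD, n = 5), or 28.04% of the control level (log2 fold change -1.81, SE 0.0910, adjusted p = 2.52e-18, edgeR quasi-likelihood test). An exact two-sided permutation test of mean log2 CPM gave p = 0.0357, the smallest value that the 56 splits of 3 against 5 samples allow. GapmeR2 brought the same lncRNA to 5.04, 5.61 and 3.40 CPM, and GapmeR1 minus GapmeR2 came to a log2 difference of 0.33 (adjusted p = 0.0662) with an SE of 0.134, so no difference in target level between both oligonucleotides passed the test. In the 16 samples treated with GapmeRs against other lncRNAs the target lay between 13.8 and 23.2 CPM with a median of 19.5 CPM, above every GapmeR1 sample.

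Most genes next to the target on 22q11 were not called changed. RTN4R, which encodes the Nogo receptor of neurons and gives the lncRNA its name, measured 61.7, 65.9 and 66.2 CPM in the 3 GapmeR1 samples, 62.4 and 67.97 CPM in medium and 58.3, 72.6 and 66.4 CPM with NTC. Its groups overlapped, with log2 fold change -0.022, SE 0.0476, adjusted p = 0.859. Of 12 protein-coding genes whose bodies lie within 250 kb, 11 were tested, 2 were lower and none was higher, where 9.39% of all genes tested were called in either direction. The 2 were DGCR8, a partner of Drosha in microRNA processing, at a log2 fold change of -0.16 (adjusted p = 0.0241) and the zinc-finger gene ZNF74 at a log2 fold change of -0.24 (adjusted p = 0.00695). Each had GapmeR1 samples within the range of controls and lost the call without the block, with DESeq2 and with NTC alone as controls. RANBP1, TANGO2, ZDHHC8, TRMT2A, ARVCF, DGCR6L, CCDC188 and SCARF2 had log2 fold changes between -0.16 and 0.33 with adjusted p-values of 0.375 or more. A wider list of 25 genes around the target held 22 tested members, of which the same 2 were lower.

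Across all genes, 1426 of 15186 tested genes (9.39%) had an adjusted p under 0.05 and are called changed, 907 higher (5.97%) and 519 lower (3.42%) with GapmeR1. Most changes were small, with a median absolute log2 fold change of 0.29 among higher and 0.23 among lower genes, and 59 higher and 31 lower genes reached a log2 fold change of 1 in size. The single largest fold change and the smallest adjusted p belonged to lower genes, and the 10 lower genes with the smallest adjusted p included ZEB1, SCMH1, KIAA1958 and RBM28. All 3 GapmeR1 samples lay above all 5 controls for 607 genes (4.0%) and below them for 547 (3.6%), together 7.6% of genes, whether or not the gene was called. Genes named below by size of change or by smallest adjusted p had to show no overlap, so their separation was set by that choice. The count of changed genes rested on the block: it was 241 (1.59%) without it, and 885 with DESeq2 in place of edgeR. It was 755 without GapmeR1 replicate 2 and 830 without GapmeR1 replicate 1, when 2 treated samples remained.

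**Figure D1:**
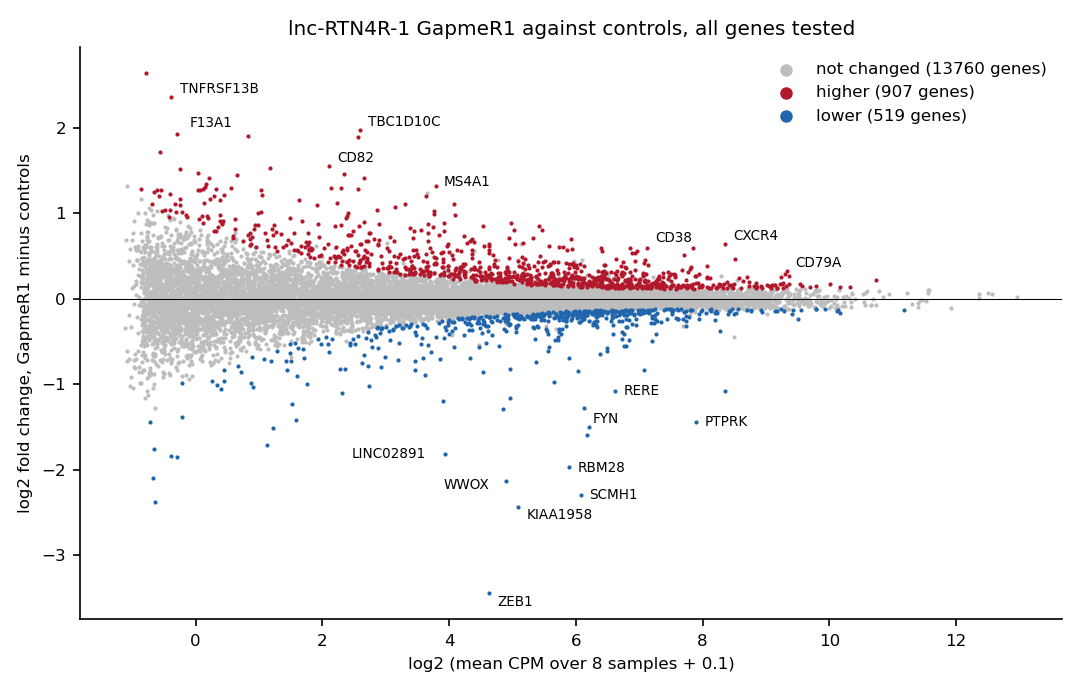
Log2 fold change of GapmeR1 minus controls (vertical axis) against the log2 of mean CPM over the 8 samples (horizontal axis), 1 point per gene tested, with 907 higher genes in red, 519 lower genes in blue and the rest in grey. ZEB1 is the lowest point at -3.44, and KIAA1958, SCMH1, WWOX, RBM28 and the target LINC02891 lie below most other genes of like abundance.

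ZEB1, a zinc-finger transcription factor that represses epithelial genes and acts in lymphocyte development, fell the most of all genes tested. It measured 3.72, 2.76 and 3.94 CPM in the 3 GapmeR1 samples, 37.6 and 34.8 CPM in medium and 39.8, 34.4 and 39.6 CPM with NTC. The GapmeR1 samples held 9.33% of the control level without any overlap (log2 fold change -3.44, SE 0.0895, adjusted p = 8.57e-28). GapmeR2 samples measured 28.7, 27.9 and 28.2 CPM, between GapmeR1 and controls, and GapmeR1 minus GapmeR2 came to a log2 difference of -3.03 (adjusted p = 3.75e-17). Against the GapmeRs for other lncRNAs GapmeR1 showed a log2 difference of -3.26 (adjusted p = 1.67e-26), although both lnc-NKX2-3-1 GapmeR1 samples also stood low, at a mean of 19.8 ± 2.37 CPM (SD, n = 2).

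SCMH1, a Polycomb group protein, had the smallest adjusted p of all genes. It measured 18.7, 19.4 and 20.98 CPM in the 3 GapmeR1 samples, 99.4 and 94.7 CPM in medium and 89.99, 97.8 and 98.4 CPM with NTC. SCMH1, like KIAA1958 below, was named under a rule that required no overlap with controls, so its separation was set by that choice. The log2 fold change of SCMH1 was -2.30 (SE 0.0555, adjusted p = 1.24e-28). With GapmeR2 the gene stood at intermediate levels of 45.8, 48.9 and 49.7 CPM. GapmeR1 minus GapmeR2 came to a log2 difference of -1.29 (adjusted p = 2.70e-14). KIAA1958 measured 9.65, 8.29 and 9.69 CPM in the 3 GapmeR1 samples, 47.1 and 47.1 CPM in medium and 46.8, 46.2 and 55.96 CPM with NTC. Its NTC replicate 3 stood above the other 4 controls, and all 3 GapmeR1 samples were far below every control (log2 fold change -2.43, SE 0.0695, adjusted p = 1.34e-26). Against GapmeR2, at 40.6, 36.4 and 41.9 CPM, GapmeR1 showed a log2 difference of -2.10 (adjusted p = 5.41e-17). KIAA1958 was also low with lnc-TIMM21-5 GapmeR1, at 30.6 ± 1.23 CPM (SD, n = 3). Means of the remaining GapmeR groups against other lncRNAs were 45.98 to 49.91 CPM.

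RBM28, a nucleolar RNA-binding protein of ribosome biogenesis, measured 20.7, 22.4 and 19.5 CPM in the 3 GapmeR1 samples, 82.1 and 88.7 CPM in medium and 78.3, 81.1 and 82.2 CPM with NTC. The groups were far apart (log2 fold change -1.97, SE 0.0561, adjusted p = 1.34e-26), and GapmeR2 samples, at 80.1, 82.97 and 78.2 CPM, lay at the level of the lower controls, 1 of them just under the lowest. The difference from GapmeR2 was thus nearly as large as that from the controls, at a log2 difference of -1.94 (adjusted p = 4.16e-18). AGPAT3, an acyltransferase of phospholipid synthesis, behaved alike, with 31.8, 29.5 and 34.7 CPM in the 3 GapmeR1 samples, 91.3 and 100.3 CPM in medium and 83.8, 102 and 102 CPM with NTC. AGPAT3 was named under a rule that required no overlap with controls, so its separation was set by that choice. Its log2 fold change was -1.60 (SE 0.0550, adjusted p = 3.55e-23), and GapmeR1 minus GapmeR2 came to a log2 difference of -1.60 (adjusted p = 6.10e-17).

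PTPRK, a receptor-type tyrosine phosphatase that takes part in cell adhesion, is one of the genes that the study names for this lncRNA. It measured 120.3, 115 and 101 CPM in the 3 GapmeR1 samples, 339 and 358 CPM in medium and 297, 308 and 262 CPM with NTC. The treated samples held 35.8% of the control level with no overlap (log2 fold change -1.44, SE 0.0546, adjusted p = 1.11e-14), and GapmeR2 samples were higher at 272, 272 and 219 CPM, with a log2 difference of -1.18 (adjusted p = 6.10e-17) for GapmeR1 minus GapmeR2. FYN, a Src family kinase that acts near antigen receptors, measured 33.3, 35.3 and 44.4 CPM in the 3 GapmeR1 samples, 87.1 and 78.98 CPM in medium and 90.5, 84.9 and 103 CPM with NTC. It was lower in every GapmeR1 sample (log2 fold change -1.28, SE 0.0514, adjusted p = 1.19e-21) and not with GapmeR2, at 84.5, 79.7 and 111 CPM. DGKH, a diacylglycerol kinase, and UBE2E2, a ubiquitin-conjugating enzyme, were lower at a log2 fold change of -1.50 (adjusted p = 5.82e-24) and a log2 fold change of -1.29 (adjusted p = 2.58e-18).

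WWOX, an oxidoreductase with WW domains that spans a common fragile site, followed another pattern. It measured 9.65, 9.34 and 9.22 CPM in the 3 GapmeR1 samples, 47.1 and 41.7 CPM in medium and 41.2, 40.7 and 38.1 CPM with NTC. It was lower in all GapmeR1 samples (log2 fold change -2.13, SE 0.0729, adjusted p = 5.82e-24) and as low with GapmeR2, at 10.7, 9.05 and 9.62 CPM, where GapmeR1 minus GapmeR2 came to a log2 difference of -0.054 (adjusted p = 0.731) with an SE of 0.101. It was also low with 2 GapmeRs against other lncRNAs, at 8.95 ± 1.78 CPM with lnc-ASTN1-1 GapmeR1 (SD, n = 3) and 12.6 ± 2.73 CPM with lnc-NKX2-3-1 GapmeR1 (SD, n = 2), whereas the other 4 of these groups had means of 31.6 to 36.7 CPM.

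PLEKHA8P1, a pseudogene whose reads may be shared with its parent gene, was at a log2 fold change of -1.71 (adjusted p = 4.53e-07), and CCDC159 at a log2 fold change of -1.51 (adjusted p = 6.22e-06). NEAT1, the lncRNA scaffold of nuclear paraspeckles, measured 217, 185 and 178 CPM in the 3 GapmeR1 samples, 392 and 321 CPM in medium and 442, 402 and 469 CPM with NTC. The groups did not overlap (log2 fold change -1.07, SE 0.138, adjusted p = 0.0164), yet the call was lost without NTC replicate 1, without GapmeR1 replicate 1 and without GapmeR1 replicate 2. GBA3, a beta-glucosidase, and AK7, an adenylate kinase, which the study also names for this lncRNA, were at a log2 fold change of -0.27 (adjusted p = 2.39e-04) and a log2 fold change of -0.31 (adjusted p = 1.33e-05), but GapmeR1 samples of each lay within the range of controls, both calls were lost without the block, and that of GBA3 also without GapmeR1 replicate 1. The study took both GapmeRs together and also drew on patient samples and knockdown of the fusion, whereas these values are for GapmeR1 alone. GapmeR1 minus GapmeR2 came to a log2 difference of -0.0066 for GBA3 (adjusted p = 0.942) and -0.16 for AK7 (adjusted p = 0.0133).

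**Figure D2:**
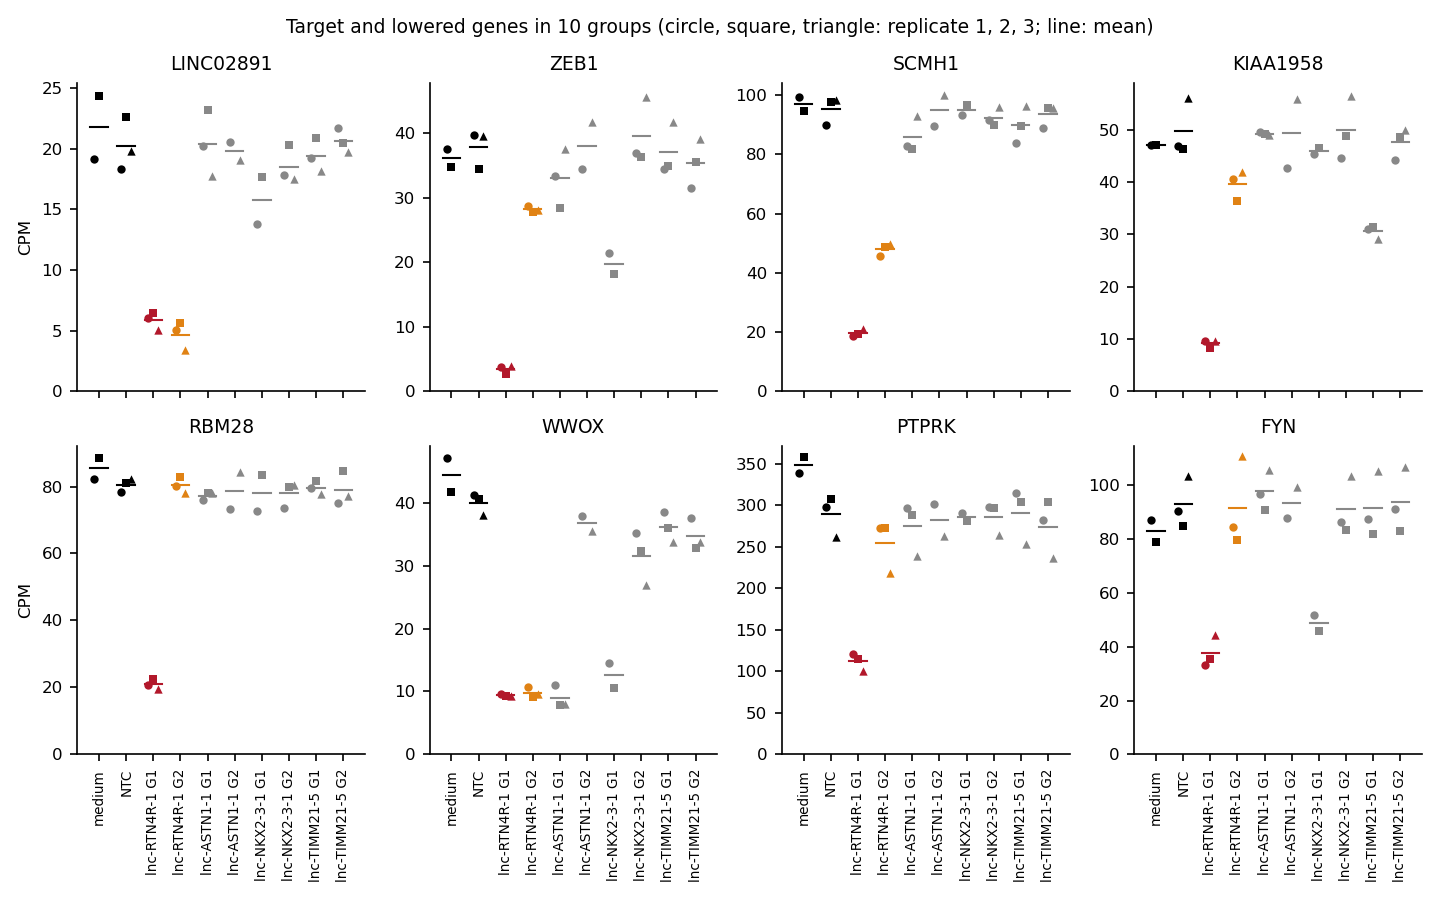
CPM (vertical axes, from 0) of the target and 7 lowered genes in all 27 samples, in 10 groups along the horizontal axis, where G1 and G2 stand for GapmeR1 and GapmeR2, each point is 1 sample and each line a group mean. GapmeR1 samples (red) are below medium and NTC (black) in every panel, GapmeR2 (orange) is as low for LINC02891 and WWOX, intermediate for SCMH1 and near the controls for RBM28, and lnc-NKX2-3-1 GapmeR1 is low for ZEB1, WWOX and FYN.

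Stretches complementary to GapmeR1 were more frequent among lower genes than among other genes. For 14986 tested genes with a GENCODE v44 body, the longest run of bases in the unspliced sense sequence that pairs with the oligonucleotide was found. A run of at least 12 bases was present in 45 of 517 lower genes (8.70%), 16 of 903 higher genes (1.77%) and 127 of 13566 genes not changed (0.936%). The share of genes that were lower rose with the length of the longest run, from 2.15% at 8 bases or less to 13.1% at 11 bases, 19.7% at 12 bases and 37.0% at 13 to 16 bases. The share that were higher had no such order, with 4.82%, 6.73%, 9.86% and 4.35% in the same classes. In 38 of the 45 lower genes the run lay in an intron and in 7 in an exon. The target itself is counted among the 45 and in the class of 13 to 16 bases.

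Long genes offer more windows, and they were more frequent among changed genes: bodies of at least 100 kb made up 30.0% of lower, 25.0% of higher and 16.6% of all tested genes. Among those long genes alone a run of at least 12 bases was present in 20.6% of lower, 5.75% of higher and 3.95% of unchanged genes. The same search with the GapmeR2 sequence gave 3.09% of lower, 1.66% of higher and 1.55% of unchanged genes over all lengths, and the 15-base NTC sequence 0.193%, 0.332% and 0.118%. These are descriptions of sequence, genes with long introns share features that were not separated here, and the part of pairing in the lower levels was not tested.

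The share of lower genes was also high where the 5′ end of the oligonucleotide paired. This was noticed after the windows had been seen and is given as a description. In 32 tested genes some window paired with all of the first 12 bases of GapmeR1, and 22 of them (68.8%) were lower, where 3.42% of all tested genes were. Of the other 10, PRR5L, a binding partner of an mTOR complex, was higher at a log2 fold change of 0.29 (adjusted p = 0.0228) and 9 were not changed. The median log2 fold change of the 32 genes was -0.83, against -0.00090 over all genes tested. The 32 genes and the 22 lower ones include the target itself. Bodies of at least 100 kb made up 25 of the 32, against 16.6% of all tested genes. In fits that contain no control sample, 21 of the 32 were lower than with GapmeR2 (15.3% of all genes tested there) and 22 were lower than with GapmeRs against other lncRNAs (3.37%). The same GapmeR1 samples enter these fits, so the counts are not independent of the lower calls or of the choice of the set. All of the 8 most lowered genes in the set, from ZEB1 to AGPAT3, belong to those described above. Genes of the set named next were chosen after their values were seen.

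Among these, RERE, a nuclear co-regulator of transcription, had a 15-base run with 1 mismatch and a level of 58.99 ± 8.21 CPM with GapmeR1 (SD, n = 3) against 122 ± 6.06 CPM in controls (SD, n = 5) (log2 fold change -1.07, SE 0.0480, adjusted p = 5.19e-20). SH3YL1, with the pairing stretch in an exon, measured 17.4 ± 1.97 CPM with GapmeR1 (SD, n = 3) against 39.2 ± 1.84 CPM in controls (SD, n = 5) (log2 fold change -1.16, SE 0.0688, adjusted p = 6.46e-16). MBD5, a protein with a methyl-CpG-binding domain, measured 8.38 against 18.8 CPM at a log2 fold change of -1.20 (adjusted p = 2.68e-13), and FGGY, a carbohydrate kinase, 2.81 against 6.08 CPM at a log2 fold change of -1.10 (adjusted p = 2.60e-07). Smaller drops were seen in PPFIA1 at a log2 fold change of -0.84 (adjusted p = 1.99e-16), MAP4K3 at a log2 fold change of -0.82 (adjusted p = 4.51e-13) and the Fanconi anemia gene FANCB at a log2 fold change of -0.73 (adjusted p = 4.61e-07). Pairing of these 12 bases was no rule, since TERF2IP, a telomere protein of the set with 138 against 144 CPM, at a log2 fold change of -0.057 (adjusted p = 0.484), was not called.

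Runs that did not begin at the 5′ end gave mixed values. CYRIA and SCN1A-AS1, each with 15 paired bases from base 2 onward, were at a log2 fold change of 0.18 (adjusted p = 0.196) and a log2 fold change of -0.20 (adjusted p = 0.557), and PTPRD, with 14 paired bases from base 3, at a log2 fold change of 0.14 (adjusted p = 0.344). FBXO3, an F-box protein with 14 paired bases from base 2, was lower at a log2 fold change of -0.38 (adjusted p = 1.72e-05). Among the lowered genes named above, FYN had a run of 11 bases from base 5, DGKH 11 bases from base 2 and CCDC159 11 bases from base 1. Of the 20 lower genes with the smallest adjusted p, 13 paired with the first 12 bases and all 20 had a run of at least 11, and of the first 50 it was 16 and 35. Over all tested genes 0.214% paired with the first 12 bases and 5.32% had a run of at least 11. Such a run was present in 20.0% of all tested genes with bodies of at least 100 kb.

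**Figure D3:**
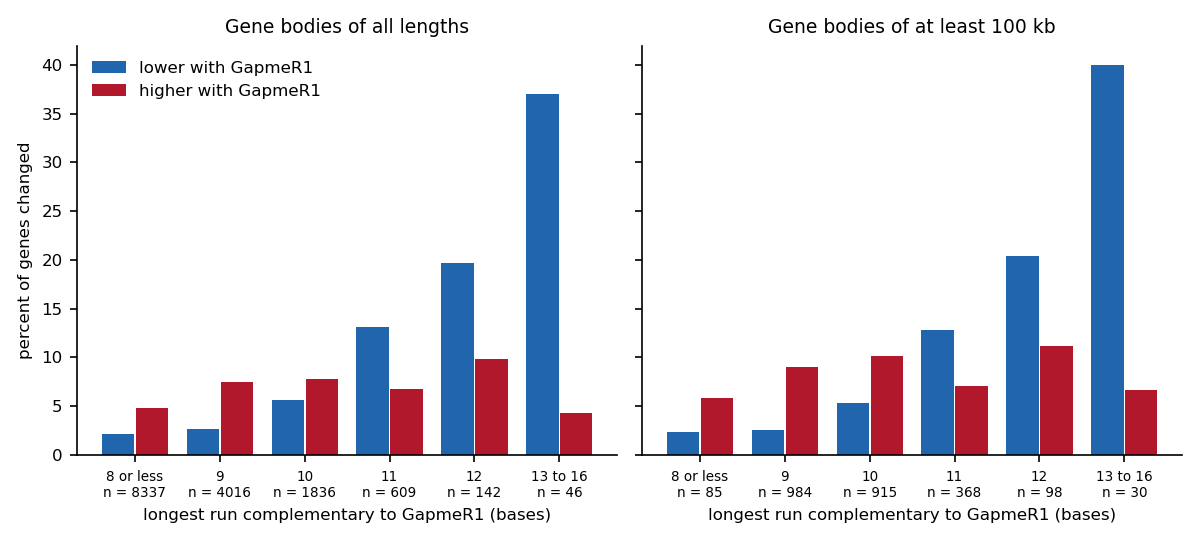
Percent of genes called lower (blue) or higher (red) with GapmeR1 by the longest run of bases complementary to the oligonucleotide (horizontal axis, number of genes below each class), over all gene bodies on the left and bodies of at least 100 kb on the right. Blue bars rise from 2.15% to 37.0% on the left, with the same order on the right, while red bars stay between 4.35% and 11.2%.

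Several gene lists had a larger share of raised members than the 5.97% of all genes tested, among them B-cell leukemia surface antigens and the cell cycle genes below. Of 29 tested members of a list of B-cell leukemia surface antigens and adhesion molecules, 15 were higher and none was lower (51.7% called, against 9.39% of all genes), with a median log2 fold change of 0.20 over the tested members against -0.00090 over all genes. The count was 4 without the block, 11 with DESeq2, 12 with replicates 1 and 2 only and 9 without GapmeR1 replicate 2. CXCR4, the receptor for the chemokine CXCL12 that holds B-cell precursors in the bone marrow, measured 443, 434 and 373 CPM in the 3 GapmeR1 samples, 309 and 269 CPM in medium and 288, 278 and 233 CPM with NTC. The lowest GapmeR1 sample was above the highest control (log2 fold change 0.64, SE 0.0390, adjusted p = 1.27e-15), and GapmeR1 minus GapmeR2 came to a log2 difference of 0.89 (adjusted p = 1.77e-13). The mean of CXCR4 was also high in the 2 lnc-NKX2-3-1 GapmeR1 samples, 402 ± 39.4 CPM (SD).

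CD38, an ectoenzyme of NAD metabolism on lymphoid cells, measured 187, 182 and 157 CPM in the 3 GapmeR1 samples, 129 and 121 CPM in medium and 116, 115 and 109 CPM with NTC. Its groups did not overlap (log2 fold change 0.59, SE 0.0413, adjusted p = 6.78e-14), and it was higher than with GapmeR2, with a log2 difference of 0.69 (adjusted p = 3.08e-12). MS4A1, which encodes CD20 of mature B cells, measured 19.9, 20.3 and 26.4 CPM in the 3 GapmeR1 samples, 6.56 and 7.01 CPM in medium and 10.5, 8.42 and 10.6 CPM with NTC. It was above every control in all 3 samples (log2 fold change 1.32, SE 0.0977, adjusted p = 2.59e-11), and higher than with GapmeR2, at 10.5, 11.8 and 17.5 CPM. ITGA4, the alpha 4 integrin, was at a log2 fold change of 0.30 (adjusted p = 7.89e-07) with GapmeR1 and did not pass the test against GapmeR2, at a log2 difference of 0.016 (adjusted p = 0.798), and its call was lost without the block.

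The same direction was seen among transcription factors of the B lineage, where 12 of 33 tested members were higher and 2 were lower (42.4% called, against 9.39% of all genes), with a median log2 fold change of 0.091. Without the block 4 were higher and 1 was lower. BCL6, the repressor that drives germinal centre B cells and survival at the pre-B stage, measured 132, 165 and 142 CPM in the 3 GapmeR1 samples, 86.1 and 114 CPM in medium and 91.7, 116 and 102 CPM with NTC. It was higher in the 3 treated samples than in any control (log2 fold change 0.53, SE 0.0400, adjusted p = 5.50e-13), and higher than with GapmeR2, with a log2 difference of 0.42 (adjusted p = 7.54e-08). IKZF2, a member of the Ikaros family, was at a log2 fold change of 0.58 (adjusted p = 2.73e-12) and FOXO1, which directs recombination genes in B-cell precursors, at a log2 fold change of 0.28 (adjusted p = 1.85e-06), the latter lost without the block. ZEB1 was the lower member with the larger change.

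Of 23 tested genes of the pre-B receptor and its proximal signalling, 4 were higher and 3 were lower (30.4% called, against 9.39% of all genes), and without the block 1 of each direction was called. CD79A, the signalling subunit of the B-cell receptor, measured 703, 737 and 785 CPM in the 3 GapmeR1 samples, 606 and 588 CPM in medium and 590.2, 569 and 597 CPM with NTC. The groups did not overlap (log2 fold change 0.32, SE 0.0393, adjusted p = 9.68e-08), and GapmeR1 minus GapmeR2 came to a log2 difference of 0.36 (adjusted p = 2.03e-06). The kinase BLK was at a log2 fold change of 0.20 (adjusted p = 7.89e-04), with overlapping groups, and its call was lost without the block. FYN, described above, was the lower member with the largest change.

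The largest increases by fold rested on few counts. TNFRSF13B, which encodes TACI, a receptor for the B-cell factors BAFF and APRIL, measured 1.10, 1.62 and 1.29 CPM in the 3 GapmeR1 samples, 0.161 and 0.219 CPM in medium and 0.396, 0.377 and 0.163 CPM with NTC, from 21 to 34 counts per treated and 3 to 7 counts per control library. TNFRSF13B, like CD82 and SH3BP2 below, was named under a rule that required no overlap with controls. The separation of treated and control values in these genes was thus set by that choice. TBC1D27P, a pseudogene whose body overlaps that of TNFRSF13B on the minus strand of chromosome 17, had 14 to 28 counts per treated and 0 to 5 per control library. The reads of these neighbours may not be separable, so they count as 1 locus. Both genes, and the interferon lambda receptor gene IFNLR1 with 16 to 28 and 4 to 7 counts, passed the count filter through the GapmeR1 samples alone, since no control reached 0.533 CPM, and their values are given without a test. TBC1D10C, an inhibitor of Ras and calcineurin in lymphocytes, measured 8.39, 11.5 and 13.8 CPM in the 3 GapmeR1 samples, 2.20 and 1.92 CPM in medium and 3.28, 2.14 and 4.01 CPM with NTC. It was above every control (log2 fold change 1.98, SE 0.138, adjusted p = 6.36e-13), as it was with GapmeR2, at 9.33, 9.66 and 12.6 CPM, and in the 2 samples of lnc-NKX2-3-1 GapmeR1, 16.8 ± 2.43 CPM (SD), and no difference between both oligonucleotides against lnc-RTN4R-1 passed the test (a log2 difference of 0.10 (adjusted p = 0.495)).

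CD82, a tetraspanin of the cell surface, measured 6.19, 6.39 and 9.43 CPM in the 3 GapmeR1 samples, 2.10 and 2.46 CPM in medium and 1.81, 1.82 and 3.47 CPM with NTC. It did not overlap with controls (log2 fold change 1.56, SE 0.136, adjusted p = 2.58e-11), with GapmeR2 samples in between at 4.23, 4.83 and 7.43 CPM. SH3BP2, an adaptor of immune receptor signalling, measured 8.50, 7.82 and 16.6 CPM in the 3 GapmeR1 samples, 2.58 and 1.26 CPM in medium and 1.53, 2.14 and 5.75 CPM with NTC. Replicate 3 of GapmeR1 and of NTC were the highest of their groups, and each treated sample was above all controls (log2 fold change 1.90, SE 0.143, adjusted p = 8.52e-12). F13A1, the A subunit of coagulation factor XIII, was at a log2 fold change of 1.91 (adjusted p = 1.52e-08), CD96, a surface receptor of T and NK cells, at a log2 fold change of 1.53 (adjusted p = 7.10e-08), and LRFN2 at a log2 fold change of 1.46 (adjusted p = 9.98e-11).

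Further members of the raised end included BICDL1 at a log2 fold change of 1.45 (adjusted p = 6.90e-06). PDE9A, a cyclic GMP phosphodiesterase, was at a log2 fold change of 1.47 (adjusted p = 3.47e-04), a call lost without the block. ADAMTS17 had 20 to 28 counts per treated and 1 to 14 per control library. It reached the count filter in all 3 treated samples but in only 2 of the 5 controls. It thus passed the filter through the GapmeR1 samples, and its values are given without a test. Among genes with more counts, FGFR1, a fibroblast growth factor receptor, measured 283, 294 and 302 CPM in the 3 GapmeR1 samples, 178 and 200.01 CPM in medium and 183, 201 and 202 CPM with NTC. FGFR1, like LIMS2 and OSBPL8 below, was named under a rule that required no overlap with controls, so its separation was set by that choice. The log2 fold change of FGFR1 was 0.60 (SE 0.0377, adjusted p = 3.25e-15). LIMS2, a focal adhesion protein, was at a log2 fold change of 0.89 (adjusted p = 2.79e-13) and OSBPL8, a lipid transfer protein, at a log2 fold change of 0.56 (adjusted p = 2.99e-13).

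**Figure D4:**
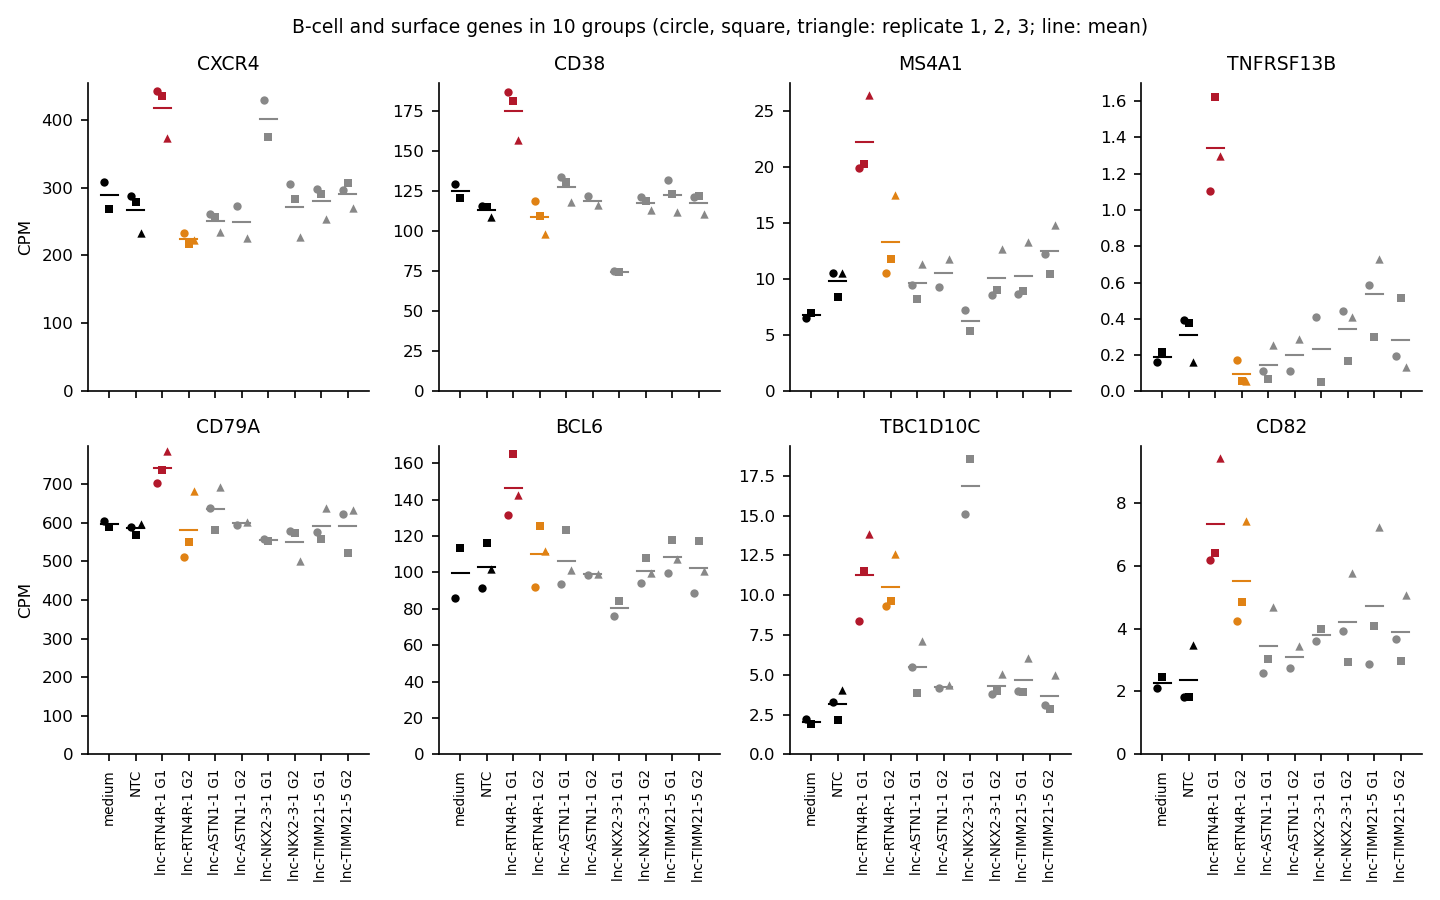
CPM (vertical axes, from 0) of 8 raised genes in all 27 samples, in 10 groups along the horizontal axis, where G1 and G2 stand for GapmeR1 and GapmeR2, each point is 1 sample and each line a group mean. GapmeR1 samples (red) are above medium and NTC (black) in every panel, GapmeR2 (orange) is about as high for TBC1D10C, and lnc-NKX2-3-1 GapmeR1 is high for CXCR4 and TBC1D10C and low for CD38. TNFRSF13B and CD82 were named under a rule that required no overlap with controls, so their separation was set by that choice. TNFRSF13B also passed the count filter through the GapmeR1 samples alone.

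Some proliferation genes rose by a small amount. Of 48 genes of the cell cycle and DNA replication, 17 were higher and none was lower (35.4% called, against 9.39% of all genes), with a median log2 fold change of 0.11. The count was 2 without the block, 10 with replicates 1 and 2 only, 9 without NTC replicate 3 and 10 without GapmeR1 replicate 3. E2F2, a transcription factor of S-phase entry, measured 161, 165 and 146 CPM in the 3 GapmeR1 samples, 122 and 125 CPM in medium and 112, 133 and 109 CPM with NTC. Its treated samples were above all controls (log2 fold change 0.41, SE 0.0411, adjusted p = 7.49e-10). MKI67, which encodes the Ki-67 proliferation antigen, did not overlap either, at a log2 fold change of 0.29 (adjusted p = 1.52e-06), and RRM2, a subunit of ribonucleotide reductase, at a log2 fold change of 0.29 (adjusted p = 6.35e-07), and AURKB, a mitotic kinase, at a log2 fold change of 0.28 (adjusted p = 1.98e-05), lost their calls without the block. Means with lnc-NKX2-3-1 GapmeR1 were above those with lnc-RTN4R-1 GapmeR1 for E2F2 (178 against 158 CPM), RRM2 (297 against 271 CPM) and AURKB (85.03 against 82.15 CPM). For MKI67 the mean there was lower (668 against 708 CPM). Against GapmeR2, E2F2, MKI67 and RRM2 were higher, but the difference of AURKB did not pass the test (adjusted p = 0.214).

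Among antigen presentation genes the called members were lower. Of 24 tested genes of MHC class I and II presentation, 10 were lower and none was higher (41.7% called, against 9.39% of all genes), with a median log2 fold change of -0.11, but none was called without the block, and 4 and 3 were called without GapmeR1 replicate 2 and without GapmeR1 replicate 1. HLA genes are near-identical and their unique counts are uncertain. HLA-DQA1, a class II chain, measured 84.98, 75.9 and 99.8 CPM in the 3 GapmeR1 samples, 95.1 and 87.1 CPM in medium and 104, 90.4 and 118 CPM with NTC. The groups overlapped (log2 fold change -0.23, SE 0.0432, adjusted p = 2.20e-04), and NLRC5, the transactivator of class I genes, was at a log2 fold change of -0.16 (adjusted p = 0.00451), HLA-F at a log2 fold change of -0.20 (adjusted p = 0.00848) and the chaperone TAPBP at a log2 fold change of -0.16 (adjusted p = 0.0106). Against GapmeR2, HLA-F showed a log2 difference of -0.63 (adjusted p = 3.69e-10). Its mean was 53.07 CPM with GapmeR1, 60.21 CPM in controls and 82.57 CPM with GapmeR2. This difference thus includes a mean with GapmeR2 above that of controls, and is not a measure of the fall with GapmeR1 alone.

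**Figure D5:**
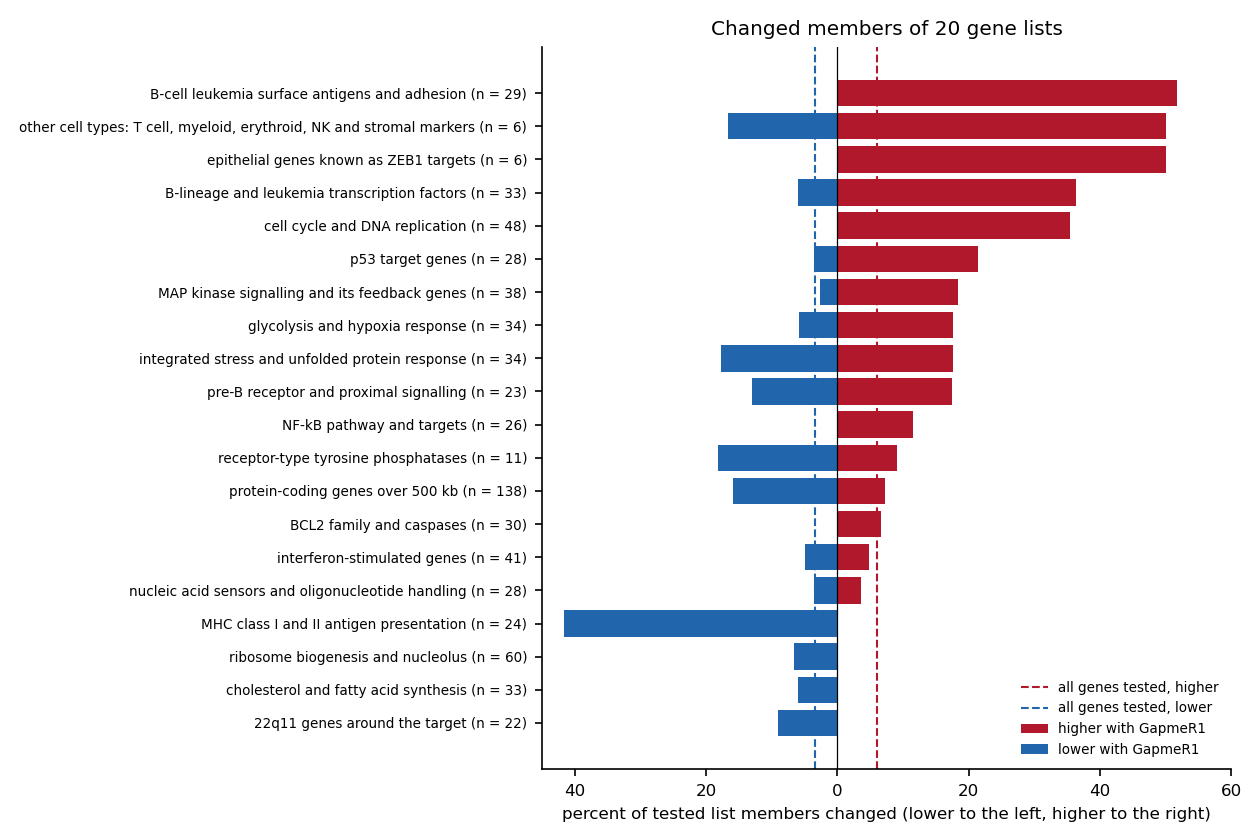
Percent of tested members of 20 gene lists called higher (red, to the right) or lower (blue, to the left) with GapmeR1, with the number tested beside each name and dashed lines at the 5.97% higher and 3.42% lower of all genes tested. Surface antigens and cell cycle genes have red bars only (15 of 29 and 17 of 48), and antigen presentation has a blue bar only (10 of 24).

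Genes known as ZEB1 targets were looked at because ZEB1 fell most, and any link to that fall was not tested. These are epithelial genes, and 18 of the list of 24 were too low in this B-cell line to be tested. Of the 6 that passed the filter, 3 were higher and none was lower, a count that rests on few genes (9.39% of all genes were called). SPINT1, a protease inhibitor of epithelia, measured 14.5, 15.5 and 18.1 CPM in the 3 GapmeR1 samples, 7.53 and 10.8 CPM in medium and 8.26, 8.55 and 9.76 CPM with NTC. It was above all controls (log2 fold change 0.80, SE 0.0895, adjusted p = 1.18e-08) and higher than with GapmeR2, with a log2 difference of 0.80 (adjusted p = 9.47e-07). CDS1, an enzyme of phosphatidylinositol synthesis, was at a log2 fold change of 1.22 (adjusted p = 3.89e-04), and SPINT2, at a log2 fold change of 0.13 (adjusted p = 0.0426), overlapped with controls and lost its call without 7 of the 8 samples in turn and with DESeq2.

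Among 11 tested receptor-type tyrosine phosphatases, PTPRK and PTPRG were lower and PTPRC, the CD45 antigen of leukocytes, was higher (27.3% called, against 9.39% of all genes). PTPRG measured 36.5, 33.9 and 33.1 CPM in the 3 GapmeR1 samples, 45.8 and 45.8 CPM in medium and 41.01, 46.7 and 41.3 CPM with NTC. All treated samples were below the controls by a small margin (log2 fold change -0.34, SE 0.0566, adjusted p = 3.43e-05), while GapmeR2 samples were far lower at 14.2, 13.7 and 13.02 CPM, with a log2 difference of 1.34 (adjusted p = 1.40e-13) for GapmeR1 minus GapmeR2. PTPRC was at a log2 fold change of 0.26 (adjusted p = 3.11e-05) and lost its call without the block.

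The 138 tested protein-coding genes with bodies over 500 kb included 22 lower and 10 higher members (23.2% called, against 9.39% of all genes), and 7 and 3 without the block. Besides WWOX and PTPRK, TENM4, a teneurin of the cell surface, measured 87.5, 83.3 and 87.5 CPM in the 3 GapmeR1 samples, 119 and 138 CPM in medium and 117, 129.8 and 127 CPM with NTC. It did not overlap with controls (log2 fold change -0.55, SE 0.0452, adjusted p = 5.12e-12), and was lower still with GapmeR2, at 67.4, 57.4 and 58.8 CPM. SMYD3, a lysine methyltransferase, was at a log2 fold change of -0.24 (adjusted p = 0.00725) with GapmeR1, a call lost without the block and without GapmeR1 replicate 1, and at 4.35, 3.50 and 3.92 CPM with GapmeR2 the gene was lower than with GapmeR1 (a log2 difference of 2.79 (adjusted p = 6.10e-17)). AFF2, a nuclear protein of the AF4 family, rose without overlap at a log2 fold change of 0.85 (adjusted p = 1.16e-10).

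Of 38 MAP kinase genes 7 were higher and 1 was lower (21.1% called, against 9.39% of all genes), with DUSP6, a phosphatase of ERK, at a log2 fold change of 0.19 (adjusted p = 4.73e-04), and no call was left without the block. Of 26 NF-kB genes 3 were higher (11.5% called, near the share of all genes), with LTB, which encodes lymphotoxin beta, at a log2 fold change of 0.43 (adjusted p = 2.48e-04), a call lost without the block. Of 34 genes of glycolysis and hypoxia 6 were higher and 2 were lower (23.5% called), where PFKL, the liver-type phosphofructokinase, measured 249, 264 and 261 CPM in the 3 GapmeR1 samples, 170.2 and 170.2 CPM in medium and 168, 190.3 and 199 CPM with NTC. PFKL did not overlap (log2 fold change 0.51, SE 0.0412, adjusted p = 3.57e-12), but the difference from GapmeR2 did not pass the test, at a log2 difference of 0.11 (adjusted p = 0.0533). EPAS1, the hypoxia-inducible factor 2 alpha, was at a log2 fold change of 0.85 (adjusted p = 5.82e-06) and the muscle-type enzyme PFKM at a log2 fold change of -0.26 (adjusted p = 1.65e-04), the latter with overlapping groups and lost without the block.

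Called members of stress and death programmes had mixed directions. Of 34 genes of the integrated stress and unfolded protein response 6 were higher and 6 were lower (35.3% called, against 9.39% of all genes), with the kinase EIF2AK3 at a log2 fold change of 0.30 (adjusted p = 2.62e-06) and PSAT1, of serine synthesis, at a log2 fold change of -0.23 (adjusted p = 5.11e-04), and none was called without the block. Of 28 p53 targets 6 were higher and 1 was lower (25.0% called), among them TP53INP1 at a log2 fold change of 0.32 (adjusted p = 2.83e-04), but 1 and 0 were called with DESeq2 and none without the block. The 6 include TNFRSF10A, which reached the count filter in all 3 GapmeR1 samples but in only 2 of the 5 controls. That gene thus passed the filter through the GapmeR1 samples. BIRC5, which encodes survivin, at a log2 fold change of 0.21 (adjusted p = 2.24e-04) and the pro-apoptotic BCL2L11, at a log2 fold change of 0.26 (adjusted p = 0.00278), were the 2 higher of 30 BCL2 family, caspase and inhibitor genes, none was lower (6.67% called), and both calls were lost without the block, that of BCL2L11 also without GapmeR1 replicate 2. Of 33 genes of cholesterol and fatty acid synthesis 2 were lower, LSS at a log2 fold change of -0.14 (adjusted p = 0.0254) and FADS2 at a log2 fold change of -0.13 (adjusted p = 0.0318) (6.06% called), and both calls were lost without the block and without NTC replicate 2, NTC replicate 3, GapmeR1 replicate 2 or GapmeR1 replicate 3, and that of FADS2 also without medium replicate 1. Of 60 ribosome biogenesis genes 4 were lower (6.67% called), among which RBM28 and DDX10, a nucleolar helicase at a log2 fold change of -0.25 (adjusted p = 6.51e-04), did not overlap with controls, and the call of DDX10 was lost without the block. The shares of the BCL2 family, lipid synthesis and ribosome biogenesis lists are below the 9.39% of all genes.

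Genes that answer foreign nucleic acid stayed near the background of all genes. Of 41 interferon-stimulated genes 2 were higher and 2 were lower (9.76% called, against 9.39% of all genes). IFITM1, a restriction factor for viruses, measured 5.35, 5.39 and 5.39 CPM in the 3 GapmeR1 samples, 3.44 and 3.40 CPM in medium and 3.73, 3.08 and 3.58 CPM with NTC. It was higher without overlap (log2 fold change 0.64, SE 0.132, adjusted p = 7.13e-04), and the difference from GapmeR2, at 5.33, 5.99 and 8.01 CPM, did not pass the test. Of 28 sensors of nucleic acid and genes of oligonucleotide handling, 7.14% were called: STING1, the adaptor of cytosolic DNA sensing, was higher at a log2 fold change of 0.71 (adjusted p = 1.64e-05) and NEAT1 lower, with the call of STING1 lost without the block.

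Direct comparisons without any control sample showed how far the changed genes set GapmeR1 apart from the other oligonucleotides. Between GapmeR1 and GapmeR2 4609 of 14904 genes (30.9%) were apart, 2329 higher (15.6%) and 2280 lower (15.3%) with GapmeR1, and 882 without the block. Of the 907 genes higher than controls, 536 were also higher than with GapmeR2 and 58 were lower, and of 512 of the 519 lower genes that were tested there 263 were also lower than with GapmeR2 and 51 were higher. Against the 16 samples of GapmeRs for other lncRNAs 1668 of 16193 genes (10.3%) differed, 6.93% of all upward and 3.37% downward, and 445 without the block. The 3 GapmeR1 samples enter each of these comparisons, so the counts are not independent of the choice of genes. Of the 907 higher genes 533 were higher there too and 1 was lower, and of the 519 lower genes 272 were lower and 14 were higher. MPO, the peroxidase of myeloid granules, differed between both GapmeRs against lnc-RTN4R-1, at 94.04 CPM with GapmeR1 and 99.9 CPM in controls against 291, 293 and 445 CPM with GapmeR2, with a log2 difference of -1.86 (adjusted p = 3.75e-20).

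Depth was similar in all 8 samples. Total counts of assigned reads ran from 16028895 to 21166987 per sample, with 22042 to 23300 genes that had a count. Of 13 B-cell precursor markers 12 had at least 10 counts in every sample, and VPREB1, the surrogate light chain gene, had none in any, which allows up to 0.187 CPM in the smallest library. The summed B-cell precursor markers were 6570 to 6824 CPM with GapmeR1 and 5814 to 6639 CPM in controls, and 4 of 12 tested were higher. Of 27 markers of other cell types 6 were tested, 3 were higher and 1 was lower (66.7% called, against 9.39% of all genes). Summed T cell markers were 16.4 to 23.5 CPM with GapmeR1 and 7.83 to 18.6 CPM in controls, nearly all of it TRAC, with CD3D, CD3G, CD2 and CD5 at no more than 3 counts, and the myeloid sum of 86.3 to 126 and 89.8 to 139 CPM was mostly MPO. Erythroid markers were at or near 0, the sum of NK markers was 1.67 to 1.71 and 0.880 to 1.57 CPM, and the stromal sum, nearly all COL1A1, 9.77 to 17.3 and 7.74 to 13.4 CPM. The part of these small sums in the results was not tested, and in bulk RNA fewer cells of a type and less RNA per cell cannot be told apart. Replicate 3 of GapmeR1 and of NTC stood apart from the other 6 samples on the first principal component (37.3% of the variance), and no replicate 3 of medium was analysed here.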

How the data were processed

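The deposited values are whole-number counts per gene. The authors used STAR against hg38, whose gene counting kept uniquely mapped reads per gene in 3 columns by strand. The annotation release is not given in the sources used here. The labels describe ribodepleted, stranded total RNA and the methods poly-A selection, and which applied could not be settled. Column 4 was used, which held 95.2% to 95.4% of reads of both strand columns. Between 73.3% and 76.0% of reads were assigned to a gene. Rows that name no gene were left out.

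From these counts CPM (TMM library sizes, prior count 2 for log2) and edgeR (4.0.16, R 4.3.3) quasi-likelihood tests were computed, with filterByExpr (minimum count 10, total 15), the replicate number as a block and Benjamini-Hochberg adjustment over all genes tested. An adjusted p under 0.05 is called changed, and SEs were derived from the F statistics. The pairing rests on replicate numbers in the labels, which mark days per the methods. Deviations from group means correlated at 0.103 to 0.501 in 7 same-number pairs and at -0.389 to 0.148 in 14 others. Replicates of each group differed by more than sampling noise (chi-square per degree of freedom 3.45 to 14.3), so each library counts as 1 sample. P-values measure the spread between cultures of 1 line. In the comparison with controls this spread includes any difference between medium and NTC, which were pooled as 1 group.

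Symbols and gene bodies came from GENCODE v44 (GRCh38), which held 56434 of 60619 identifiers. Oligonucleotide sequences were read from the study's supplementary list and compared with every 16-base window (15 for NTC) of each gene body on the sense strand. Sequences on chromosome 8 are not shown. The scripts were tested on simulated data.

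Named were the target, protein-coding neighbours within 250 kb, PTPRK, GBA3, AK7, RBM28, SMYD3, ZEB1, WWOX, TENM4 and TBC1D10C, the 12 largest changes per direction without overlap and with a mean of at least 1 CPM in GapmeR1 or in controls, a rule that a raised gene can pass through GapmeR1 alone, the 5 smallest adjusted p per direction, and up to 4 changed members of each of 21 gene lists, 107 genes in all, of which 106 were tested. Some of these genes and 1 of the lists are not reported here. The comparison, genes and lists were chosen with earlier results of these data known, so they are no independent support. Alternatives were no block, DESeq2 (1.42.0), RLE, other filters, controls and strand columns, and each sample left out in turn.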

Additional observations from a re-analysis of the deposited data

Results flagged for a closer look

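Among the named genes, 8 had 1 control sample far from the other 4 (Dixon's test at 0.71 for 5 samples, which chance passes in about 1 of 20 groups). In 7 of the 8 that sample was NTC replicate 3, and in the other it was medium replicate 1. Replicate numbers mark days, NTC replicate 3 is the only control of its day, and the test does not take the day into account. For the lowered genes KIAA1958 and DGKH, NTC replicate 3 was high, at 55.96 CPM against 46.24 to 47.1 CPM and at 115.3 CPM against 91.3 to 94.41 CPM in the other controls. NTC replicate 3 was low for PSAT1 at 151.1 CPM (others 190.2 to 203.9), for RRM2 at 186.3 CPM (others 230.3 to 246.4) and for AURKB at 61.33 CPM (others 69.91 to 72.35). It was high for SDF2L1 at 19.36 CPM (others 8.599 to 11.34) and for MPO at 131.7 CPM (others 84.78 to 95.95). GapmeR1 replicate 3 stood on the same side of the other GapmeR1 samples for SDF2L1 (21.2 against 15.6 and 13.3 CPM), RRM2 (231 against 290.5 and 290.9 CPM), AURKB (76.9 against 79.7 and 89.8 CPM) and MPO (117 against 85.6 and 79.4 CPM), so a day difference and an outlying sample cannot be told apart here. PTPRC was low in medium replicate 1, at 109.9 CPM against 124.1 to 129.1 CPM in the other controls.

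Both GapmeRs against lnc-RTN4R-1 lowered the target, yet 4609 of 14904 genes differed between them in the direct test with the replicate block, and this was 882 without the block. ZEB1, RBM28 and KIAA1958 were lower with GapmeR1, and SMYD3, PTPRG and TENM4 were lower with GapmeR2.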

How the results depend on the processing

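The target's log2 fold change kept its direction and call under every alternative run, from -1.75 to -1.91, and its mean level was 5.84 CPM with plain library totals. The number of changed genes (1426) was 241 without the replicate block and 885 with DESeq2. It ran from 755 without GapmeR1 replicate 2 to 1409 without medium replicate 2, from 1094 to 1447 under the other alternatives, and from 830 upward when any other sample was left out. All 241 genes called without the block were among the 1426, in the same direction, as were 872 of the 885. With medium only as controls it was 990 of 1447 called genes, and with NTC only 1098 of 1283. Without GapmeR1 replicate 2 it was 720 of 755, which is 50.49% of the 1426. Without GapmeR1 replicate 1 it was 780 of 830, which is 54.7% of the 1426. Without the block 882 genes differed between GapmeR1 and GapmeR2, and 445 from the GapmeRs against other lncRNAs. Of 105 named genes besides the target, 52 lost their call without the block, 13 with DESeq2 and 15 with replicates 1 and 2 only. Runs of at least 12 bases were found in 8.70% of lower genes in gene bodies but in 1.354% in spliced transcripts, a search that holds no introns. Shares chosen after the data were seen were 24.18% for runs of at least 11 bases, 3.288% for at least 13 bases and 4.255% for pairing of the first 12 bases. Over all tested genes the same shares were 5.32%, 0.307% and 0.214%.

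Only 4 neighbours of the target, none called in any of these fits, changed sign. RANBP1 was at -0.043 without the block and with medium only, and at -0.0129 to 0.0456 with 1 sample left out. TANGO2 ran from -0.0216 to 0.0814 and RTN4R from -0.0527 to 0.0207 in the same way. DGCR6L was at 0.0028 with NTC only and ran from -0.121 to 0.0190. The cause was not tested. Fits with 2 treated samples or with 2 medium samples as the only controls have few degrees of freedom, and genes at a few counts per library, such as TBC1D27P, have wide errors.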
